A study of Mus musculus with 8 samples.

Results

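The genes described here encode 41 proteins of the lysosome: 9 glycosidases, 7 enzymes that degrade glycosaminoglycans or remove sulfate groups, 6 lipid hydrolases and sphingolipid activators, 10 proteases, 7 membrane proteins and cholesterol transporters, and the transcription factors Tfeb and Tfe3. They were chosen by name from the 52143 gene rows of the table, with earlier results of these data known. Each of the 41 symbols had 1 row, and all 41 passed the filter on low values (1 TPM or more in 4 or more of the samples, which 13164 genes passed). Among them were Fuca1 and Asah1, which belong to the gene signature that the study derived from tumors of its mice.

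RNA from the distal colon of 8 samples was compared, 4 from control mice (Villin1-Cre-ERT) and 4 from Siglec-XII mice (SIGLEC12-Villin1-Cre-ERT). The labels list 4 samples per group while the series text speaks of 3 mice per condition, so at least 2 samples of a group may share a mouse, and n below counts samples. The mice were female littermates, 8 weeks old at the first tamoxifen dose. The Siglec-XII mice carried 1 copy of human SIGLEC12 in the ROSA26 locus, behind a CAG promoter and an EGFP stop cassette that Cre removes. Both groups carried the tamoxifen-dependent Cre, which the Villin1 promoter restricts to the epithelium of the intestine, both received tamoxifen at 10 mg/ml on 5 days, and both were harvested 7 days after the last dose (day 12). The control group therefore lacked the transgene but not Cre or tamoxifen. The table has no row for SIGLEC12, so the transgene itself could not be checked in these samples. The samples are pieces of whole colon, in which transgene-bearing epithelium is mixed with cells that Cre does not reach, and in such bulk RNA fewer cells of a type and less RNA per cell cannot be told apart.

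Lysosomes are acidic organelles in which hydrolases break down glycans, lipids, proteins and nucleic acids that arrive by endocytosis, phagocytosis or autophagy. Most soluble hydrolases are made in the endoplasmic reticulum, receive a mannose phosphate tag in the Golgi and are carried onward by mannose phosphate receptors, and a proton pump in the membrane keeps the lumen acidic. TFEB and TFE3 are related basic helix-loop-helix factors that enter the nucleus when mTORC1 activity at the lysosome falls and that bind a short palindromic E-box near the start of many lysosomal genes. In the colon, lysosomes serve both the absorptive epithelium and the macrophages of the lamina propria.

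The TFEB-type E-box was searched for first. The choice of the genes did not use promoter sequence, but this E-box is known from lysosomal genes. Its share among lysosomal genes is therefore a description and not an independent result. Promoter windows of RefSeq on GRCm38.p6, from 250 bases before to 50 bases after the start of each gene, were matched by symbol for 37 of the 41 genes, and the letters TCACGTG were searched on both strands. The match TCACGTGA holds these letters on both strands at once. They were found in the windows of 11 of the 37 genes (29.7%), compared with 4.29% of all 27025 genes with a window and 6.92% of the 9662 that passed the filter. The longer palindrome GTCACGTGAC was in 0 of the 37 windows and in 0.37% of all windows. The matches follow with up to 9 bases on each side, on the strand of the gene, with the matched letters in capitals and neighbouring matches kept in 1 run.
Arsa, chr15:89477426-89477450, minus strand: aactcagtgTCACGTGttgtctgct
Ctsa, chr2:164833751-164833793, plus strand: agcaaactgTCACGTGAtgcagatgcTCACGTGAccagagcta
Ctsd, chr7:142388057-142388077, minus strand: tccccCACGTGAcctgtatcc
Ctsd, chr7:142387910-142387935, minus strand: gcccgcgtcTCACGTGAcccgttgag
Gaa, chr11:119267813-119267837, plus strand: tctgtgcgaTCACGTGtttgactct
Gla, chrX:134601184-134601242, minus strand: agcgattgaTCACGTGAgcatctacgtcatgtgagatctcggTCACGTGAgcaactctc
Glb1, chr9:114401020-114401044, plus strand: gcttctgagTCACGTGgcctacaga
Lamp1, chr8:13159090-13159160, plus strand: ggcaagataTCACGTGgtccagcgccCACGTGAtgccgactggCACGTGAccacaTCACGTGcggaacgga
Lgmn, chr12:102439127-102439151, minus strand: gaatgtctgTCACGTGgtccatttt
Mcoln1, chr8:3500438-3500489, plus strand: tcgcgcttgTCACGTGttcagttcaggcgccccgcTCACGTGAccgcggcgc
Naglu, chr11:101070011-101070035, plus strand: accttcaggTCACGTGgcccgaggt
Sgsh, chr11:119355524-119355548, minus strand: cctgccgtgCACGTGAccgtgggga
These windows held 18 matches, and in 9 of the 11 genes at least 1 match lay within the 100 bases before the start. The matches were spread over the roles. They lay in 3 glycosidases (Gaa, Gla and Glb1), 3 enzymes of glycosaminoglycan or sulfate breakdown (Arsa, Naglu and Sgsh), 3 proteases (Ctsa, Ctsd and Lgmn) and 2 membrane proteins (Lamp1 and Mcoln1). Lamp1, which encodes the most abundant glycoprotein of the lysosomal membrane, had 4 matches within a single run of 71 bases. A match describes these letters only, since binding was not measured.

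The values are log2(TPM + 1), in which TPM (transcripts per 1000000) is corrected for transcript length, so that levels can be set beside each other between genes. Mean TPM over the 8 samples ranged from 2.18 for Idua to 582.8 for Cd63, with a median of 22.0. Of the 41 genes, 13 had a mean over 100 TPM and 7 a mean under 10 TPM. The highest levels were those of Cd63, a tetraspanin of late endosomes and lysosomes, of the protease Ctss, of Lamp1, and of Psap, the precursor of the saposins. The lowest were those of Idua, Galc, Sgsh, Gla and Arsa, all of them hydrolases, together with Npc1 and Ids. The plot of TPM by gene shows these levels in every sample.

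**Figure D1:**
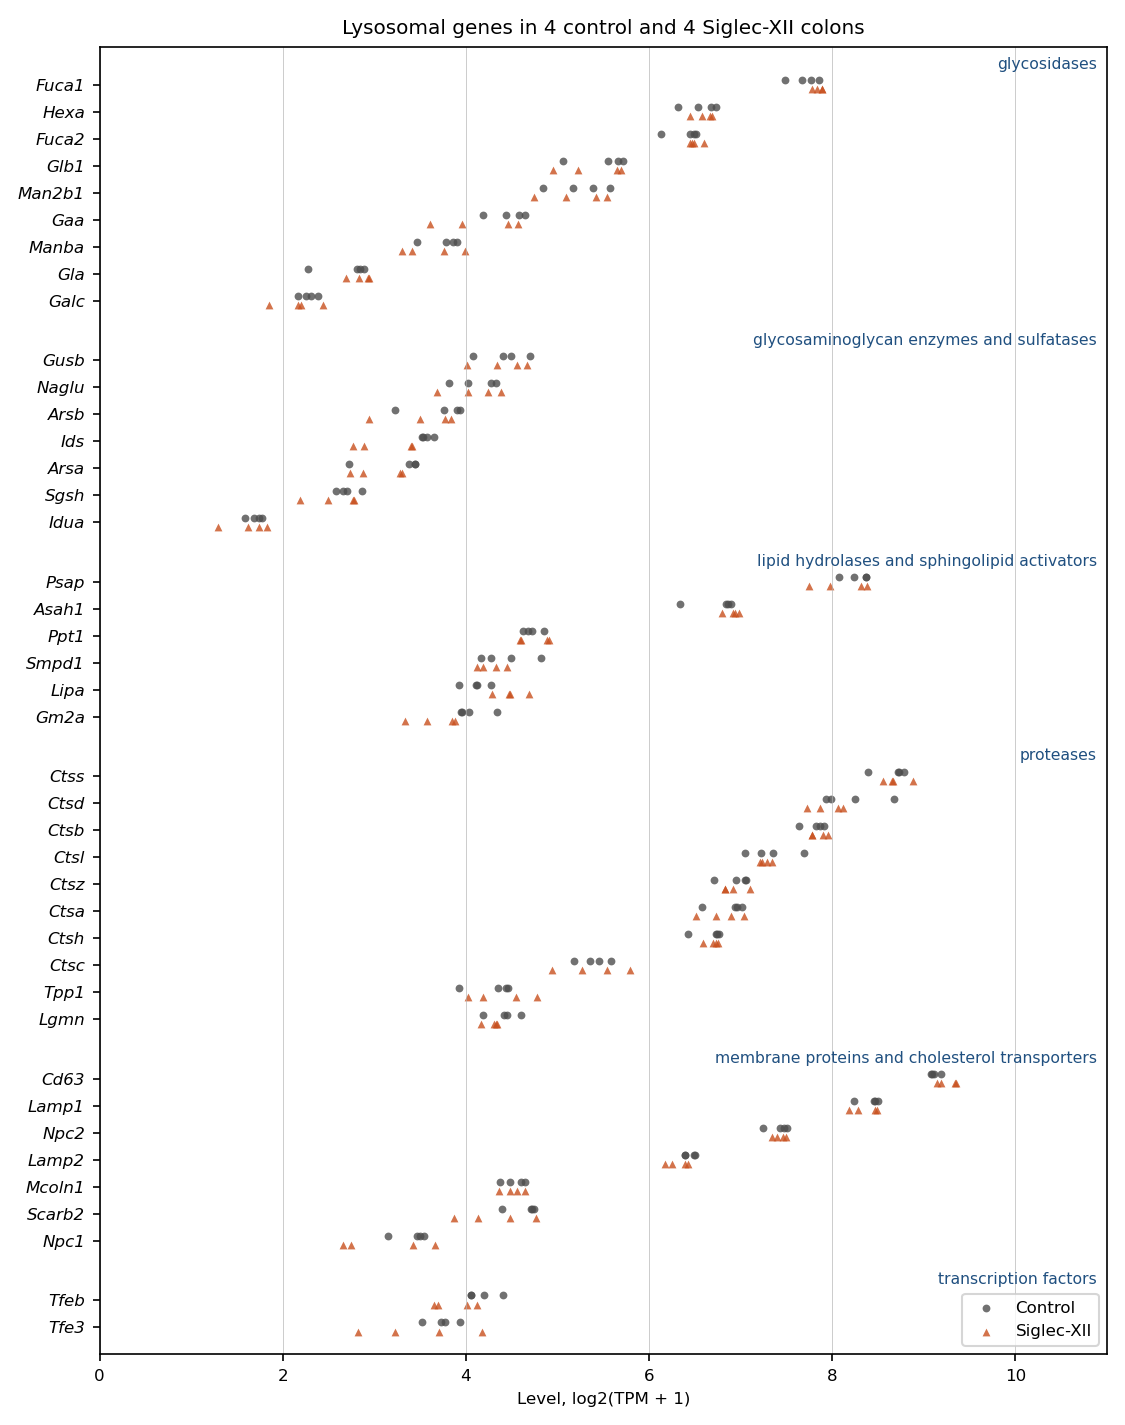
TPM of each of the 41 genes on a log scale, grouped by role, with 1 point per sample for 4 control and 4 Siglec-XII samples. Levels run from Idua (mean 2.18 TPM) to Cd63 (mean 582.8 TPM), and the points of the groups overlap in all but 3 genes.

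The libraries were not alike in ways that touch every result that follows. In Siglec-XII samples 3 and 4 the median tested gene lay 0.16 and 0.30 below its own mean over the 8 samples on the log2 scale, and in the other 6 samples it lay between 0.04 below and 0.15 above. The median tested gene therefore differed between the groups by -0.15 (Siglec-XII minus control), and 21.9% of tested genes had a difference above 0. Control sample 1 stood apart in another way: it was the lowest of the controls in 35 of the 41 genes. Its median deviation was -0.17 for these 41 genes and -0.04 over all tested genes. No share over all tested genes is given for the count of 35. The epithelial markers (11 of 11 tested, among them Epcam, Vil1 and Krt20) and the 3 Hox genes of the distal colon were present in every group, with summed TPM of 11536 to 16108 and 459 to 562 in controls and of 11553 to 15652 and 449.9 to 620.0 in Siglec-XII samples. No pair of libraries held the same values (largest correlation 0.987 across tested genes).

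With limma over all 13164 genes, 0 of the 41 genes passed an adjusted P of 0.05, compared with 5 of all tested genes (0.038%), and the smallest adjusted P of the 41 was 0.515. At an unadjusted P of 0.05, 3 of the 41 passed (7.32%), below the 8.87% of all tested genes. One of these was higher in Siglec-XII samples (Lipa, 2.44% of the 41 against 1.19% of all tested genes) and 2 were lower (Ids and Gm2a, 4.88% against 7.67%). The same 3 genes were those whose groups did not overlap, where 5.11% of all tested genes did not (1.05% higher and 4.06% lower). Differences lay above 0 in 13 genes and below 0 in 28, where 21.9% of all tested genes lay above 0. They lay within 0.1 of 0 in 17 of the 41 genes, and in none beyond 0.5. The median difference of the 41 genes was -0.06, compared with -0.15 over all tested genes, and 29 of the 41 lay above the median gene.

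**Figure D2:**
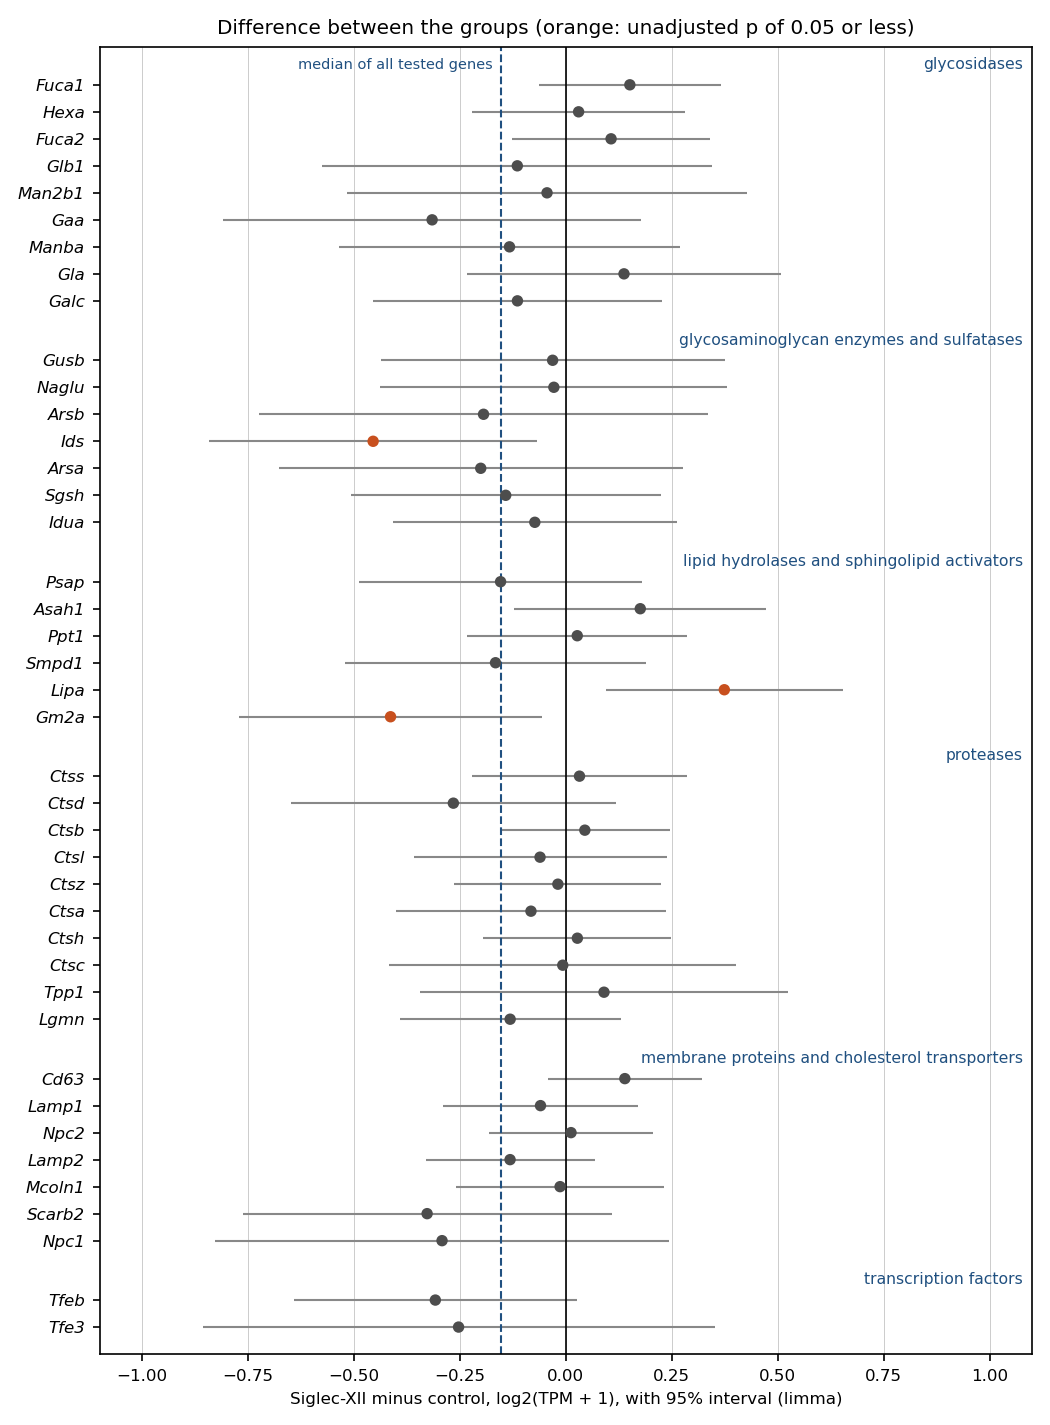
Log2 difference (Siglec-XII minus control, on the log2(TPM + 1) scale) of each of the 41 genes with its 95% interval from limma, by role, with genes past an unadjusted P of 0.05 in orange. The solid line marks 0 and the dashed line the median of all tested genes at -0.15, and every interval lies inside 1 log2 unit on either side of 0.

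The intervals set how large a change these samples leave room for, if the samples are independent. Where samples share a mouse, the intervals may be too narrow. The folds are of TPM + 1 on the deposited scale, where the sample medians differed between the groups by -0.21, a shift that centring takes out. All 41 of the 95% intervals lay inside a 2-fold change in either direction, which was so for 86.9% of all tested genes. The bounds farthest from 0 were -0.86 for Tfe3, a fold of 0.552, and 0.65 for Lipa, a fold of 1.57. The spread within groups (pooled SD) had a median of 0.21 over the 41 genes and of 0.24 over all tested genes, and it was smallest for Cd63 (0.08) and largest for Tfe3 (0.43).

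Counts by direction depended on how the samples were scaled. When each sample was centred on the median of its tested genes, 10 of the 41 genes passed an unadjusted P of 0.05 (24.4%, against 10.8% of all tested genes). Of these, 9 were higher (22.0% against 8.64%), namely Fuca1, Fuca2, Hexa, Gla, Asah1, Lipa, Ppt1, Ctsb and Tpp1, and only Ids was lower (2.44% against 2.16%). On that scale 33 of the 41 differences lay above 0, as did 61.5% of those of all tested genes. Their median was 0.15 against 0.06 over all tested genes, and 7 genes did not overlap, all higher, against 6.93% (5.74% higher). Quantile normalization gave 6 genes (against 8.45%), 5 higher and 1 lower, against 5.35% and 3.1% of all tested genes. The smallest adjusted P of the 41 after centring was 0.459, where 0.0304% of all tested genes were called, so that none of the 41 was called on either scale. Over all 19 fits that were made, 9 genes (Lipa, Ids, Gm2a, Fuca1, Fuca2, Asah1, Tfeb, Cd63 and Scarb2) kept 1 sign, and the difference of the other 32 changed sign in at least 1 fit.

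The sphingolipid and lipid group held the gene with the largest increase. Lipa (ENSMUSG00000024781, chr19:34492318-34527474 of GRCm38) encodes lysosomal acid lipase, which hydrolyzes cholesteryl esters and triglycerides taken up with lipoproteins. Its TPM was 14.2, 16.3, 18.4 and 16.4 in control samples 1 to 4 and 21.4, 21.1, 18.5 and 24.9 in Siglec-XII samples 1 to 4. All 4 Siglec-XII samples thus lay above all 4 controls, although Siglec-XII sample 3 exceeded control sample 3 by little. Means were 16.3 ± 1.69 and 21.5 ± 2.60 TPM (SD, n = 4 each), a log2 difference of 0.37 (SE 0.12, 95% interval 0.09 to 0.65, limma P = 0.0145, adjusted P = 0.515, exact permutation P = 0.0286). The permutation P is the smallest that 4 against 4 samples can give, and every gene whose groups do not overlap gets it. For Lipa, Ids and Gm2a it therefore restates the lack of overlap and adds no support. Lipa was past an unadjusted P of 0.05 in all 19 fits, with differences from 0.30 to 0.59, and its adjusted P ran from 0.177 to 0.99.

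Gm2a (ENSMUSG00000000594, chr11:55098115-55113029) encodes the activator protein that lifts ganglioside GM2 out of the membrane for hydrolysis. Its TPM was 19.3, 15.4, 14.6 and 14.4 in control samples and 13.4, 13.7, 10.9 and 9.06 in Siglec-XII samples. Every Siglec-XII sample lay below every control, with samples 3 and 4 the lowest and control sample 1 the highest. The means of 15.9 ± 2.31 and 11.8 ± 2.18 TPM differed by -0.41 on the log2 scale (SE 0.16, 95% interval -0.77 to -0.06, limma P = 0.0283, adjusted P = 0.515, exact permutation P = 0.0286). Relative to the median gene the difference was -0.26, after centring it was -0.20 with overlapping groups, and Gm2a was past an unadjusted P of 0.05 in 11 of the 19 fits.

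Asah1 (ENSMUSG00000031591, chr8:41340197-41374773) encodes acid ceramidase, which splits ceramide into sphingosine and a fatty acid. Its TPM was 79.7, 115, 118 and 113.5 in control samples and 125, 119.6, 122 and 109.9 in Siglec-XII samples. Control sample 1 was low and the other 7 samples overlapped. The log2 difference was 0.18 (SE 0.13, limma P = 0.214, adjusted P = 0.558, exact permutation P = 0.2), and without control sample 1 it was 0.04, the lowest value of any fit. After centring, the groups did not overlap and the difference was 0.39, past an unadjusted P of 0.05 but not an adjusted one (0.459).

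Psap, the most abundant gene of the lipid group, encodes the precursor of the saposins, which present sphingolipids to their hydrolases. Its TPM was 268, 329, 329 and 301 in controls and 331, 318, 252 and 214 in Siglec-XII samples. Siglec-XII samples 1 and 2 lay in the range of the controls or just above it and samples 3 and 4 below it, and the difference of -0.15 (limma P = 0.326, adjusted P = 0.625, exact permutation P = 0.429) was that of the median gene and 0.06 after centring. Of the other genes, Smpd1 (acid sphingomyelinase) ranged from 16.4 to 27.3 TPM and Ppt1 (palmitoyl protein thioesterase) from 23.1 to 29.0 TPM over the 8 samples, with overlapping groups. The 6 genes summed to 422 to 529 TPM in controls and 398 to 541 TPM in Siglec-XII samples.

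All 7 enzymes of glycosaminoglycan and sulfate breakdown had a difference below 0, from -0.45 to -0.03, and after centring 6 of the 7 lay above 0. Ids (ENSMUSG00000035847, chrX:70343069-70365084) encodes iduronate sulfatase, which takes the first sulfate from heparan and dermatan sulfate. Its TPM was 10.9, 10.6, 10.5 and 11.6 in control samples and 9.60, 9.61, 6.38 and 5.81 in Siglec-XII samples. All Siglec-XII samples lay below all controls, samples 1 and 2 by little and samples 3 and 4 by more. The means of 10.9 ± 0.492 and 7.85 ± 2.04 TPM gave a log2 difference of -0.45 (SE 0.17, 95% interval -0.84 to -0.07, limma P = 0.0263, adjusted P = 0.515, exact permutation P = 0.0286). Relative to the median gene the difference was -0.30, and after centring it was -0.24 with overlapping groups, still past an unadjusted P of 0.05. Ids was past an unadjusted P of 0.05 in 12 of the 19 fits, but not without Siglec-XII sample 3 or without sample 4, where Lipa alone of the 41 genes passed.

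Gusb, the most abundant gene of that group, encodes beta-glucuronidase. Its TPM was 15.9, 21.6, 25.0 and 20.3 in controls and 24.4, 22.5, 19.2 and 15.1 in Siglec-XII samples, with full overlap and a difference of -0.03 (limma P = 0.867, adjusted P = 0.938, exact permutation P = 0.857) that was 0.18 after centring. The other members were Naglu and Sgsh, which both act on heparan sulfate, Idua, which removes iduronic acid, and the sulfatases Arsa and Arsb. Their differences lay between -0.20 and -0.03, and none passed an unadjusted P of 0.05. Summed over the 7 genes, TPM was 61 to 87.0 in controls and 50.7 to 84.5 in Siglec-XII samples.

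Among the glycosidases, 4 differences lay above 0 and 5 below (8 and 1 after centring), and none passed an unadjusted P of 0.05 on the deposited scale. Fuca1 (ENSMUSG00000028673, chr4:135920735-135940311) encodes the lysosomal fucosidase, which trims fucose from glycoproteins and glycolipids. Its TPM was 178, 216, 231.5 and 203 in control samples and 235, 236, 228 and 218 in Siglec-XII samples. The Siglec-XII samples lay close together within or above the upper part of the control range. Means of 207 ± 22.8 and 229 ± 8.18 TPM gave a log2 difference of 0.15 (SE 0.09, 95% interval -0.06 to 0.37, limma P = 0.145, adjusted P = 0.522, exact permutation P = 0.114). After centring it was 0.36 with groups that did not overlap and an adjusted P of 0.459, and it passed an unadjusted P of 0.05 in 3 of the 19 fits. Without control sample 1 the difference was 0.08.

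The related Fuca2 ranged from 69.2 to 95.7 TPM over the 8 samples. Hexa, which acts in the breakdown of ganglioside GM2, ranged from 78.9 to 105 TPM, and control sample 1 was the lowest of the 8 samples for both genes. Glb1 (beta-galactosidase), Man2b1 and Manba (mannosidases), Gaa (the acid glucosidase that degrades glycogen), Gla (alpha-galactosidase) and Galc (galactosylceramidase) overlapped between the groups, with differences from -0.32 to 0.14. Summed TPM of the 9 glycosidases was 420 to 567 in controls and 476 to 572 in Siglec-XII samples.

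The 10 proteases had differences from -0.27 to 0.09 with overlapping groups throughout. Ctss, a cysteine cathepsin that trims the invariant chain in antigen-presenting cells, was the most abundant. Its TPM was 334, 423, 440.5 and 421 in controls and 405, 470.1, 375 and 401.5 in Siglec-XII samples, a difference of 0.03 (limma P = 0.780, adjusted P = 0.894, exact permutation P = 0.8) whose sign changed without control sample 1 (-0.06) or without Siglec-XII sample 2 (-0.03).

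Control sample 1, low for most of the 41 genes, was the highest control for Gm2a, Ctsd and Ctsl. Ctsd, the aspartic protease of the lysosome, was at 407.5, 252, 243 and 303 TPM in controls and 267, 276, 233 and 211 TPM in Siglec-XII samples, with a difference of -0.27 (limma P = 0.152, adjusted P = 0.524, exact permutation P = 0.229). Ctsl, a cysteine cathepsin, was at 206, 149, 131 and 162 TPM in controls and 149, 155, 147 and 162 TPM in Siglec-XII samples, with a difference of -0.06 (limma P = 0.656, adjusted P = 0.827, exact permutation P = 0.743) that was 0.15 after centring. In both genes the other 3 controls lay in or near the range of the Siglec-XII samples. Values of Ctsd, Ctsl and Arsb also carry an uncertainty of assignment, because 33.2%, 28.2% and 39.6% of their 31-base windows occur in transcripts of another gene. The share was between 11.4% and 19.9% for Sgsh, Arsa, Cd63 (mostly its pseudogene Cd63-ps), Ctsa, Ctsb and Hexa, and at most 0.63% for Lipa, Ids, Gm2a and Asah1.

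Ctsb, Ctsh, Ctsz and Ctsa, the last of which also protects beta-galactosidase, were between 85.2 and 248 TPM in every sample. Ctsc, which activates granule serine proteases, Tpp1, which removes tripeptides, and Lgmn, which cuts after asparagine and processes other cathepsins, were between 14.2 and 54.4 TPM. Neither set separated the groups. Summed TPM of the proteases was 1481 to 1552 in controls and 1363 to 1589 in Siglec-XII samples.

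**Figure D3:**
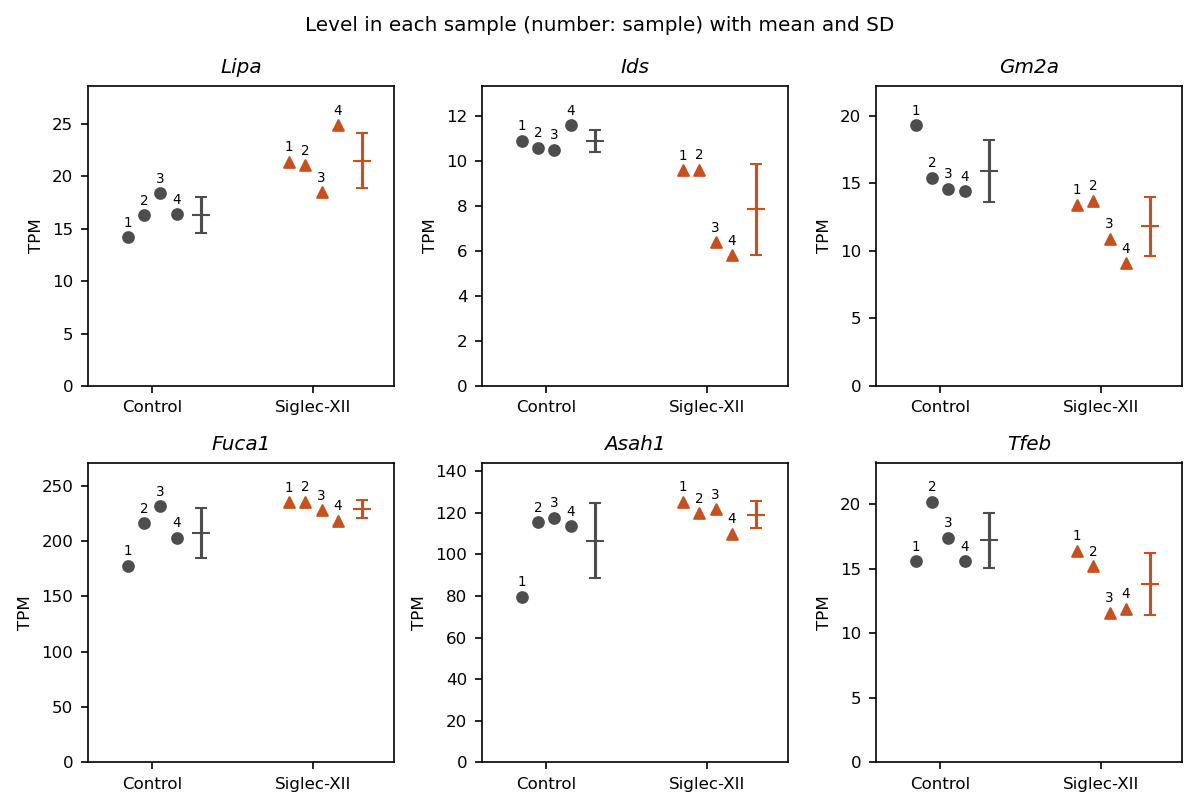
TPM in each control and Siglec-XII sample for Lipa, Ids, Gm2a, Fuca1, Asah1 and Tfeb, with 1 panel per gene, an axis from 0, the sample number at each point and the mean and SD of each group beside it. All Siglec-XII points lie above the controls for Lipa (means 21.5 and 16.3 TPM) and below them for Ids (7.85 and 10.9 TPM) and Gm2a (11.8 and 15.9 TPM).

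None of the 7 membrane proteins and cholesterol transporters passed an unadjusted P of 0.05. Cd63 was at 539, 584, 543 and 551 TPM in controls and 565, 580.3, 647 and 654 TPM in Siglec-XII samples. Siglec-XII samples 3 and 4, low for most of the genes, were the highest of the 8 samples here. The difference was 0.14 (SE 0.08, 95% interval -0.04 to 0.32, limma P = 0.117, adjusted P = 0.515, exact permutation P = 0.0857).

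Lamp1 and Lamp2, the main glycoproteins of the lysosomal membrane, were at 289.6 to 361 and 71.2 to 89.5 TPM over the 8 samples, with overlapping groups. Scarb2, a receptor that carries cargo to the lysosome, was at 20, 25.8, 25.3 and 25.2 TPM in controls and 26.2, 21.4, 16.6 and 13.6 TPM in Siglec-XII samples. Its 8 values overlapped, since Siglec-XII sample 1 was the highest and control sample 1 lay below Siglec-XII sample 2, and the difference was -0.33 (limma P = 0.124, adjusted P = 0.515, exact permutation P = 0.257). It was -0.11 after centring, -0.18 without Siglec-XII sample 4 and -0.02 without Siglec-XII samples 3 and 4. Npc1 and Npc2, which pass cholesterol out of the lysosome, and the calcium channel Mcoln1 also overlapped, at 5.30 to 11.6, 151 to 181 and 19.6 to 24.1 TPM. The 7 genes together summed to 1120.5 to 1262 TPM in controls and 1222 to 1248.5 TPM in Siglec-XII samples.

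Tfeb (ENSMUSG00000023990, chr17:47737030-47792419), the factor that drives many lysosomal genes when nutrients are scarce, was at 15.6, 20.2, 17.4 and 15.6 TPM in controls and 16.4, 15.2, 11.6 and 11.9 TPM in Siglec-XII samples. Only Siglec-XII sample 1 reached into the control range. The difference was -0.31 (SE 0.15, 95% interval -0.64 to 0.03, limma P = 0.0663, adjusted P = 0.515, exact permutation P = 0.114), and it passed an unadjusted P of 0.05 in 1 of the 19 fits. It was -0.09 after centring and -0.11 without Siglec-XII samples 3 and 4. Its relative Tfe3 was at 10.5 to 14.3 TPM in controls and at 6.09 to 17.1 TPM in Siglec-XII samples, which held both the lowest and the highest of the 8 values. The 11 genes with the E-box letters had a median difference of -0.11 (range -0.32 to 0.14) and none passed an unadjusted P of 0.05, and the 26 without them had a median of -0.05 (range -0.45 to 0.37), with 3 past it.

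**Figure D4:**
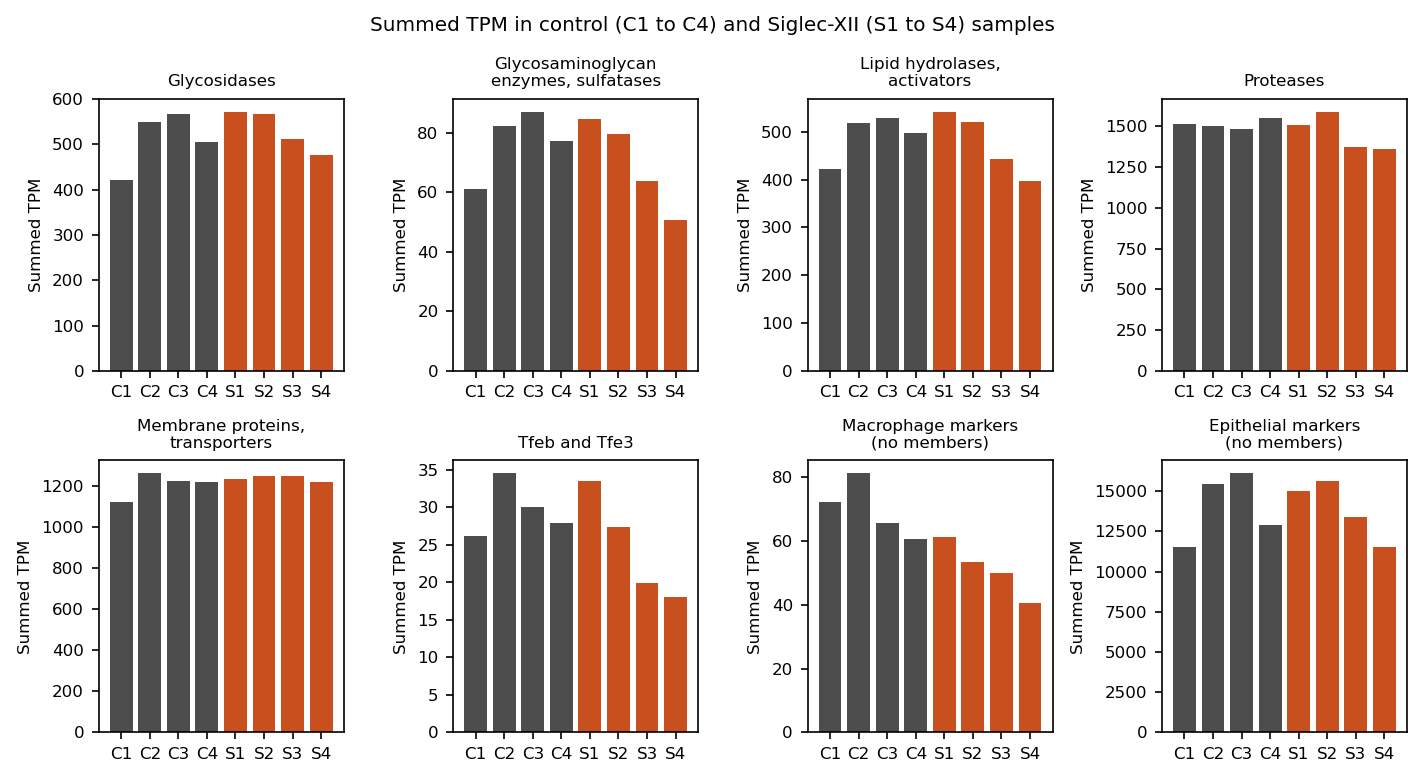
Summed TPM of the genes of each role, and of the macrophage and epithelial markers, with 1 bar per sample for control samples 1 to 4 (C1 to C4) and Siglec-XII samples 1 to 4 (S1 to S4) and axes from 0. The ranges of the groups overlap in every role, for example 1481 to 1552 TPM in controls and 1363 to 1589 TPM in Siglec-XII samples for the proteases.

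How the samples ordered was shared by most of the genes. Siglec-XII sample 4 was the lowest of the 8 samples in 21 of the 41 genes, control sample 1 in 13, Siglec-XII sample 3 in 5 and control sample 3 in 2. Siglec-XII sample 1 was the highest in 14. Siglec-XII samples 3 and 4 both lay below samples 1 and 2 in 32 genes. No shares over all tested genes are given for these counts, so they are not read as a trait of the 41 genes. The median deviation of the 41 genes from their means was -0.12 and -0.31 in Siglec-XII samples 3 and 4, close to the -0.16 and -0.30 of all tested genes. In control sample 1 it was -0.17, compared with -0.04 over all tested genes. The summed epithelial markers were also lowest in control sample 1 (11536 TPM) and Siglec-XII sample 4 (11553 TPM), against 12896 to 16108 TPM in the other 6 samples, and their part in the order of the samples was not tested.

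**Figure D5:**
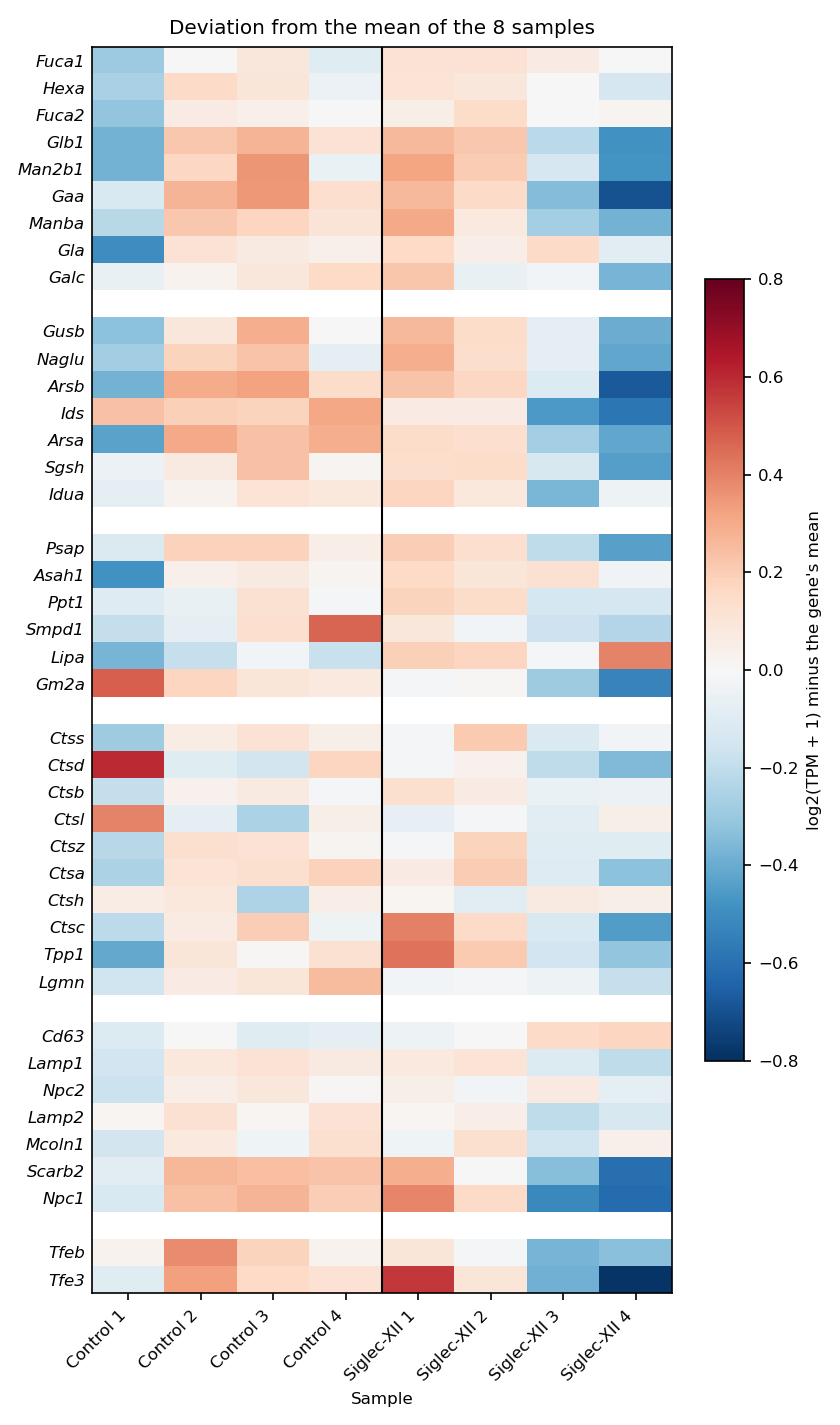
Deviation of each of the 41 genes from its mean over the 8 samples on the log2(TPM + 1) scale, with 1 column per sample. Siglec-XII sample 4 (median -0.31), control sample 1 (median -0.17) and Siglec-XII sample 3 (median -0.12) lie low for most genes.

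The result that rested least on these libraries was that of Lipa. Without Siglec-XII samples 3 and 4, 1 of the 41 genes (Lipa) passed an unadjusted P of 0.05 (2.44%, against 2.71% of all tested genes), and 7 genes did not overlap (17.1%, against 12.5%). In that fit 31 differences lay above 0, as did 51.1% of those of all tested genes. Without control sample 1, Lipa and Ids passed (4.88% against 8.59%) and 5 genes did not overlap (against 12.4%). Without all 3 of these samples, Lipa and Tpp1 passed (4.88% against 5.24%) and 9 genes did not overlap (against 21.5%), an alternative added after the values were seen.

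The wider pathway was read from 6 lists of other genes, of which 96 of 102 could be tested. None of the 96 passed an adjusted P of 0.05. At an unadjusted P of 0.05, 0 were higher and 6 were lower (6.25%), against 1.19% and 7.67% of all tested genes. After centring, 11 were higher and 1 was lower, against 8.64% and 2.16% of all tested genes. Among the lower genes were Atp6v1a, a catalytic subunit of the proton pump (-0.42, from 33.1 to 25.0 TPM, exact permutation P = 0.0286), Gga3, a sorting adaptor for mannose phosphate receptors (-0.48, from 5.93 to 4.05 TPM, exact permutation P = 0.0857), the membrane protein Laptm5 of blood cells (-0.59, from 2.30 to 1.16 TPM, exact permutation P = 0.0286) and the autophagy protein Wipi1 (-0.54, from 17.3 to 12.1 TPM, exact permutation P = 0.0857), each by limma with an adjusted P of 0.515. Of these 4, Atp6v1a and Laptm5 did not overlap between the groups.

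Counted by list, those 6 genes were 1 of 17 subunits of the proton pump (median difference -0.10), 1 of 12 genes of hydrolase delivery (-0.21), 2 of 19 further hydrolases and activators (-0.07), 1 of 18 further membrane proteins (-0.05) and 1 of 16 autophagy genes (-0.05). None of the 14 tested genes of the Rag GTPases, Ragulator and mTORC1 passed, and their median difference was 0.06. The median of all tested genes, -0.15, lay below 5 of these 6 medians.

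Other cell types of the colon wall also contain lysosomes, and some of their markers differed between the groups at an unadjusted P of 0.05, though none at an adjusted P of 0.05 in the reported fit. Of 12 macrophage markers, 5 could be tested and 7 had a mean under 1 TPM. None was at 0 in any sample, and 2 were lower at an unadjusted P of 0.05, C1qb (-0.84, exact permutation P = 0.0857, limma adjusted P = 0.515) and C1qc (-0.78, exact permutation P = 0.0571, adjusted P = 0.515). Of the 5 tested, 4 had a log2 difference below 0 and 1, Mertk, above it (0.09, 7.68 and 8.2 TPM on average). Summed TPM of the 12 markers was 60.6 to 81.2 in controls and 40.5 to 61.1 in Siglec-XII samples, most of it from Cd14 (45.6 and 34.4 TPM on average). Of 6 smooth muscle markers, 3 were lower (Des -0.70, exact permutation P = 0.0286, Cnn1 -0.75, exact permutation P = 0.0286, and Myh11 -0.78, exact permutation P = 0.0857, each with an adjusted P of 0.515 by limma), and their sum was 623 to 1003 TPM in controls and 303 to 651 TPM in Siglec-XII samples.

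Of 6 neutrophil markers, 3 could be tested and 3 had a mean under 1 TPM. Of those tested, 2 were lower without overlap, S100a8 (21.2 ± 14.3 and 2.36 ± 1.44 TPM, -2.61, limma adjusted P = 0.333, exact permutation P = 0.0286) and S100a9 (43.9 ± 35.7 and 3.77 ± 1.83 TPM, -2.94, limma adjusted P = 0.515, exact permutation P = 0.0286). With array weights the adjusted P of S100a8 was 0.0224. The other tested gene of that list, Ly6g, had the highest level of the list and overlapped between the groups. It was at 280.9 ± 35.5 TPM in controls and 287.5 ± 52.5 TPM in Siglec-XII samples, a log2 difference of 0.02. Which cells the Ly6g RNA came from was not tested. Of 5 endothelial markers only Pecam1 could be tested, at a low level (2.16 and 1.09 TPM on average). It was lower without overlap (-0.59, limma adjusted P = 0.515, exact permutation P = 0.0286).

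Control sample 1 had the highest sum of B and plasma cell markers (17.7 TPM, against 1.58 to 5.98 TPM in the other controls and 0.944 to 2.47 TPM in Siglec-XII samples) and of T cell markers (13.4 TPM, against 2.12 to 8.28 TPM and 2.02 to 4.26 TPM). In each of these lists 5 of 6 markers had a mean under 1 TPM. In control sample 1 most of the sum came from 1 gene, Jchain (11.9 TPM) or Trbc2 (11.2 TPM). Summed goblet cell markers were 9798 to 11843 TPM in controls and 11087 to 15220 TPM in Siglec-XII samples, with Siglec-XII samples 3 and 4 the highest. Most of this sum came from Zg16 (5064 and 6295 TPM on average) and Tff3 (3004 and 3485 TPM). Of the 7 goblet cell markers, 4 had a log2 difference above 0 and 3 below it (Fcgbp -0.01, Muc2 -0.18 and Spdef -0.29). The groups overlapped in all 7. The part of these cell types in the values of Gm2a, Ids, Lipa, Ctsd and Ctsl was not tested.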

How the data were processed

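RNA-seq values of 8 samples of distal colon were used, 4 per group. The authors quantified transcripts with kallisto (0.45.0 in the submitters' processing notes, with the build GRCm38) and deposited 1 value per gene and sample, log2(TPM + 1). Anti-log values summed to 1000000 in each sample. TPM carries no sequencing depth, so no counting intervals are given, and precision rests on 4 samples per group. The labels list 4 samples per group but the series text speaks of 3 mice per condition, and no label ties a sample to 1 mouse, so samples of a group may share a mouse and the P values measure the spread between these samples, which may be technical.

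The groups were compared by linear models in limma (version 3.58.1, R 4.3.3, two-sided, moderated variance with an intensity trend) over the 13164 genes that reached 1 TPM in 4 or more samples, adjusted by Benjamini-Hochberg over all of them. The fit was tested on simulated data. Because 1 was added before the logarithm, changes of low genes are understated. Named genes were also compared by two-sided exact permutation tests over the samples, added after the data were seen. Where the groups do not overlap, this P is fixed at 0.0286 by the lack of overlap. Python 3.11.15 was used for sums and figures. Alternatives were a pseudocount of 0.1, no filter, a TPM minimum of 5, median centring, quantile normalization, unmoderated variance, array weights, the sample number as a block and samples left out. Gene positions are those of GENCODE M21 and promoter windows those of RefSeq.

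The 41 genes and the lists were chosen with earlier results of these data known. Named in full were genes past an unadjusted P of 0.05 or without overlap, Fuca1, Asah1, Tfeb and the most abundant gene of each role, and of the other lists up to 3 genes with the smallest P, of which 2 are not reported here. Ctsd, Ctsl, Scarb2 and Cd14 were named after their values were seen.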

Additional observations from a re-analysis of the deposited data

Results flagged for a closer look

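A sample far from the other 3 of its group was looked for by Dixon's ratio, the gap to the nearest value over the range of the group. Of 94 groups of 4 samples, 8 held such a sample, and 6 of these were control sample 1. About 4.7 would be flagged by chance if the groups were independent. They are not, because all genes are read from the same 8 samples, so the count of 8 cannot be judged against 4.7. The ratio of that sample was 0.908 for Asah1, 0.876 for Gla, 0.91 for Arsa, 0.834 for Ctss, 0.836 for Lamp1 and 0.898 for Scarb2, and it was the lowest control for all 6 genes. Control sample 3 was low for Ctsh (ratio 0.906) and Siglec-XII sample 4 was low for Lgmn (ratio 0.8295). The cause was not tested.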

How the results depend on the processing

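None of the 41 genes passed an adjusted P of 0.05 in any of the 19 fits, and Lipa, Ids, Gm2a, Fuca1, Asah1, Tfeb, Cd63 and Scarb2 kept their direction in all of them. As reported, 3 genes passed an unadjusted P of 0.05 (7.32%, against 8.87% of all tested genes). With median centring 10 passed (24.4% against 10.8%) and with quantile normalization 6 (14.6% against 8.45%). Without Siglec-XII samples 3 and 4, 1 passed (2.44% against 2.71%). With single samples left out 1 to 5 passed, where 3.7% to 18.1% of all tested genes passed. The 5 without Siglec-XII sample 1 were 12.2% against 18.1%. Of the genes past an unadjusted P of 0.05, 9 were higher with centring (22.0% against 8.64% of all tested genes) and 5 with quantile normalization (12.2% against 5.35%). In the reported fit 1 was higher (2.44% against 1.19%). With array weights 2 passed, both higher, where 14.1% of all tested genes passed in either direction. Without control sample 1 and Siglec-XII samples 3 and 4, 2 passed, both higher, where 5.24% did. Lower genes, 2 in the reported fit (4.88% against 7.67%), were 1 with centring (2.44% against 2.16%), 1 with quantile normalization (2.44% against 3.1%) and 1 with the replicate block. They were 0 with array weights or without either set of samples, and 0 to 4 with single samples left out (0 without Siglec-XII sample 3 or 4, and 4 without sample 1). Genes without overlap, 3 as reported (7.32%, against 5.11% of all tested genes), were 7 with centring (17.1% against 6.93%). They were 7 without Siglec-XII samples 3 and 4 (17.1% against 12.5%) and 9 without control sample 1 as well (22.0% against 21.5%). With single samples left out they were 3 to 5, and the 5 were without control sample 1 (12.2% against 12.4%). Of the pathway lists, 12 genes passed with centring and with quantile normalization, against 6 as reported. Of all tested genes, 10.8%, 8.45% and 8.87% passed in these 3 fits. With the block 3 passed (7.18% of all tested genes), and without the sets of 3 and 2 samples 2 and 0 (5.24% and 2.71%). With single samples left out 1 to 13 passed, where 3.7% to 18.1% of all tested genes did. The 13 were without Siglec-XII sample 1, the fit with 18.1%. The 5 genes called over all genes became 18 with array weights, 3 with a TPM minimum of 5, with no filter or with unmoderated variance, 0 without either set of samples, and 1 to 6 with single samples left out.

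The median difference of -0.06 became 0.15 with centring and ran from -0.14 to -0.0014 with single samples left out. Differences in summed TPM (Siglec-XII minus control) after centring were 100.5 for glycosidases (21 as deposited), 53.4 for lipid genes (-16.2), 166.6 for proteases (-54.6) and 226.0 for membrane proteins (31.2, and 96.4 with quantile normalization). Without Siglec-XII samples 3 and 4 that of proteases was 36.1 (37.4 without control sample 1 as well) and that of the transcription factors 0.783 (-4.93). That of glycosaminoglycan enzymes (-7.2) was 3.66 with centring, 3.28 with quantile normalization and 5.23 without Siglec-XII samples 3 and 4. Quantile normalization gave 21.6 for proteases and 15.1 for lipid genes, which were 39.1 without Siglec-XII samples 3 and 4 and 15.7 without control sample 1 as well. With single samples left out they ran from -9.13 to 39.8 for glycosidases, -39.5 to 9.83 for lipid genes, -12.5 to -0.891 for glycosaminoglycan enzymes, -98.1 to -22.9 for proteases, 2.35 to 49.4 for membrane proteins and -7.88 to -2.71 for transcription factors.

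Of the 41 genes, 32 changed sign in at least 1 of the 19 fits, among them 5 of the genes given in full. Psap was 0.059 with centring, 0.088 without Siglec-XII samples 3 and 4 and 0.024 without control sample 1 as well. Gusb was 0.057 with array weights, 0.18 with centring, 0.15 with quantile normalization, 0.19 and 0.074 without the sets of 2 and 3 samples, and -0.14 to 0.096 with single samples left out. Ctss ran from -0.057 to 0.077 and Ctsl from -0.15 to 0.061 with single samples left out. Ctsl was 0.021 with array weights, 0.15 with centring, 0.007 with quantile normalization and 0.052 without the set of 3, where Ctsd was 0.035. The causes were not tested.

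No pairing of samples by the numbers that the groups share was seen, which 4 samples per group cannot exclude. Correlations of same-numbered samples were -0.165, -0.204, 0.103 and -0.002, and 0 of 8 samples correlated best with their own number. With the number as a block, 2 of the 41 genes passed an unadjusted P (Lipa higher and Gm2a lower, 4.88% against 7.18% of all tested genes) and 4 genes were called over all genes. With 4 samples in each group, the 95% intervals give the precision of each difference if the samples are independent.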

Other observations

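The E-box letters TCACGTG were also counted in the promoter windows of the other lysosomal lists. They were in 6 of 9 windows of genes that deliver hydrolases to the lysosome (66.7%), 5 of 15 of the Rag GTPases, Ragulator and mTORC1 (33.3%) and 4 of 13 of the proton pump (30.8%). They were also in 2 of 14 of the further hydrolases and activators (14.3%), 2 of 15 of the further membrane proteins (13.3%) and 1 of 12 of the autophagy genes (8.33%). The share was 4.29% of all genes with a window and 6.92% of those that passed the filter. Within the 41 genes, 0 of the 5 windows of the lipid group and 0 of the 2 windows of Tfeb and Tfe3 held them.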
